A study of Mus musculus with 41 samples.

Results

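Skeletal muscle was examined for the relation between a mark of active promoters and a mark of repressed ones. The comparison joined the H3K4me3 and the H3K27me3 peak lists of mouse gastrocnemius muscle (GAS), the large calf muscle, which is built mainly of fast fibers. It rested on 4 of the 41 samples of the series and on 2 of its 24 peak lists. Each protein-coding gene of the mm10 annotation was placed in a class by its promoter, a window reaching 2000 bp to either side of any of its transcription start sites (TSS). A gene with at least 1 bp of a peak of either list in this window carried the mark. Of 21755 protein-coding genes, 2628 carried both marks (12.1%), 11329 carried H3K4me3 only (52.1%), 2580 carried H3K27me3 only (11.9%) and 5218 carried neither (24%).

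H3K4me3 is written by the SET1 and MLL methyltransferases and sits over the start sites of active and of CpG-rich genes. H3K27me3 is written by the Polycomb enzymes EZH1 and EZH2 and spreads over silenced developmental genes, often across many kilobases. Promoters that carry both marks on the same chromatin are called bivalent and are best known from embryonic stem cells, where they mark regulators of lineages not yet chosen. A whole muscle also holds endothelial, connective tissue, nerve and immune cells beside its fibers. Both marks at a promoter of such a tissue may lie in the same nuclei or in different cells, which cannot be told apart in these data.

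The muscle came from female C57BL/6 mice aged 8 to 12 weeks, with no treatment, and was snap-frozen and dounced to nuclei without sorting. CUT&Tag, in which an antibody directs Tn5 transposase to cut at a histone mark, was run with 2 biological replicates per mark. For GAS, incubation volumes were raised because tissue debris remained among the nuclei. The authors merged the replicates before calling peaks, so each mark has a single list here, no value within GAS has a replicate error, and no test between marks was made. The intervals given are 95% intervals for counting error only (Wilson for a share, Newcombe for a difference of shares, order statistics for a median). The classes were compared with those of the other 3 cell types that had both marks: post-ischemia macrophages (PIM), sorted as CD45+CD11b+F4/80+CD64+ cells from the calf muscle of female C57BL/6 mice of the same age 2 days after hindlimb ischemia, and E14 embryonic stem cells grown in serum-lif (ESC-ser) or 2i-lif (ESC-2i). With 1 cell type against 3, an exact permutation test cannot give a p below 0.25, so these comparisons are given as values.

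The GAS H3K4me3 list held 28915 peaks on the autosomes and X. They covered 52.8 Mb with a median width of 1467 bp, and 62.1% of them touched a promoter. The H3K27me3 list held 36400 peaks over 138 Mb with a median width of 2779 bp, of which 28.9% touched a promoter. The signal of a peak is the overlap of fragments, not scaled for depth, and its median maximum was 54 in the H3K4me3 list and 16 in the H3K27me3 list. Read depth is not in the lists. Very high peaks, with a maximum above 1000, numbered 44 for H3K4me3 and 9 for H3K27me3, and the former held 25.1% of all H3K4me3 signal. Without them the number of protein-coding genes with both marks was 2617.

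Promoter sequences show how the classes differ in CpG content, a feature the classes were not built on. The 7 RefSeq promoters below (GRCm38.p6, 250 bases before and 50 after the start, printed 5′ to 3′ on the gene's strand) illustrate the classes and are drawn from the gene lists described below. Capitals mark each CpG, the letters CG, which read the same on both strands.
Ndufv1: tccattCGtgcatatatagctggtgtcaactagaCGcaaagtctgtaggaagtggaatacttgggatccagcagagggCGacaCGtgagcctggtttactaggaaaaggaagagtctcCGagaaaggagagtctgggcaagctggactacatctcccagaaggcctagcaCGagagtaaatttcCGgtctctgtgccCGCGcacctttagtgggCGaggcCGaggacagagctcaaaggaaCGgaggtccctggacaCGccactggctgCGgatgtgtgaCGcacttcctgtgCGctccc
Atp2a1: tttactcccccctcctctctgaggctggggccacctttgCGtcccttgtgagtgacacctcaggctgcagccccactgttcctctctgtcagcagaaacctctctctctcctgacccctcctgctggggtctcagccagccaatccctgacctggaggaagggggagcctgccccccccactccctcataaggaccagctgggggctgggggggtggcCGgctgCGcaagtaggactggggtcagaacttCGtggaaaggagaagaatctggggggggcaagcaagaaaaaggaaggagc
Pax7: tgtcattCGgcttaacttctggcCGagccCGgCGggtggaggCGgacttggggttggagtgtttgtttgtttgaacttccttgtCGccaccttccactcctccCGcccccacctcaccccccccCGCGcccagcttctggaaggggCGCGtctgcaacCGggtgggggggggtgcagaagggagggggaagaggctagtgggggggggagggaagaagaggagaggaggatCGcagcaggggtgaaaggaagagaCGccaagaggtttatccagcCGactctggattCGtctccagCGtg
Isl1: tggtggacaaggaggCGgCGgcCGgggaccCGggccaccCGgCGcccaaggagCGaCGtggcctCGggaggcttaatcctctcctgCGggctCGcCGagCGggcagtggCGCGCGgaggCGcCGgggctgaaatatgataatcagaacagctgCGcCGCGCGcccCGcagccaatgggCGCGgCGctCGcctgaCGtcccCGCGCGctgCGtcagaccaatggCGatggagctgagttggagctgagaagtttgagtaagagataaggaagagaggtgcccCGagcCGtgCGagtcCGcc
Krt5: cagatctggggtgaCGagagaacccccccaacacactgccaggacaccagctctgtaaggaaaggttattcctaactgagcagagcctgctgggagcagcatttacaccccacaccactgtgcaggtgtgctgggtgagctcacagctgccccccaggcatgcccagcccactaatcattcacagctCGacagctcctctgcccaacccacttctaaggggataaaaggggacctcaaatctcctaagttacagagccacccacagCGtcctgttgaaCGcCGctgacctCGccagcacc
Neurod1: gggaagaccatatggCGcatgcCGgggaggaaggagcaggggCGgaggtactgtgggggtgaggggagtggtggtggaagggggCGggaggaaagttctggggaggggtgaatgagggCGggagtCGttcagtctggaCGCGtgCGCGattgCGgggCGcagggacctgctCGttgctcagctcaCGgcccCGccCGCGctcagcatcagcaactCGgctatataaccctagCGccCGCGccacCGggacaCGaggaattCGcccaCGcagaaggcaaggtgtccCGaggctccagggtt
Olfr1: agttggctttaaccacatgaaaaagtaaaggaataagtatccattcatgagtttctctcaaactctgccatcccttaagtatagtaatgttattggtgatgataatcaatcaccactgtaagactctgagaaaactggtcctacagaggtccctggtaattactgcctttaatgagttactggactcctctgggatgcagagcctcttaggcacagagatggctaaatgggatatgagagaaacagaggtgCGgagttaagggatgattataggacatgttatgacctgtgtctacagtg
All 7 lie on the minus strand. Ndufv1, a subunit of respiratory complex I, belonged to the H3K4me3-only class and had 16 CpGs at chr19:4012706-4013005. Atp2a1, the calcium pump of fast fibers, had 4 at chr7:126463024-126463323 and lay in an H3K4me3 peak all the same. Among the genes with both marks, Pax7, the factor of muscle stem cells, had 17 CpGs at chr4:139832919-139833218, and Isl1, a factor of motor neurons, had 37 at chr13:116309639-116309938. The Isl1 sequence lay in peaks of both marks over all 300 bases, whereas that of Pax7 lay in the H3K4me3 peak and had 0 bases in the H3K27me3 peak nearby. Krt5, a keratin of the epidermis, had 6 CpGs at chr15:101712856-101713155 and Neurod1, a neuronal factor, had 26 at chr2:79456587-79456886, each with H3K27me3 over the whole sequence and no H3K4me3. Olfr1, an olfactory receptor with neither mark, had 1 CpG at chr11:73399446-73399745.

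RefSeq sequences were matched to 16433 of the protein-coding genes (75.5%), and 95.2% of them held at least 1 CpG. The median promoter held 21 CpGs per 300 bases in the H3K4me3-only class (interval 21 to 22, n = 8828) and 17 in the class with both marks (17 to 18, n = 1954). It held 5 in the H3K27me3-only class (5 to 6, n = 1935) and 2 in the class with neither (2 to 2, n = 3716). A wider measure covered all genes and called a promoter CpG-high where a 500 bp window within 1000 bp of a TSS had an observed over expected CpG ratio above 0.75 and a GC content above 55%. By it, 71.7% of genes with both marks were CpG-high (70.0 to 73.4%), against 78.1% of H3K4me3-only genes, 21.7% of H3K27me3-only genes and 2.72% of genes with neither. Of all CpG-high genes 93.9% carried H3K4me3, and of the few that did not, 79.7% carried H3K27me3 (76.6 to 82.6%). Nearly every CpG-high promoter of the muscle thus lay in a peak of at least 1 of the marks. The H3K27me3-only class depended on the peaks that were kept: among the 10000 peaks of largest signal in each list, 48.1% of its genes were CpG-high.

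H3K27me3 was present at 18.8% of the protein-coding genes with H3K4me3 in GAS (18.2 to 19.5%). The share was 24.4% in PIM, 26.2% in ESC-ser and 23.0% in ESC-2i. GAS thus had the lowest share of the 4 cell types, by -5.59 percentage points against PIM (interval -6.57 to -4.60), -7.40 against ESC-ser (-8.46 to -6.34) and -4.15 against ESC-2i (-5.11 to -3.18). These intervals do not cover differences between the lists. The H3K27me3 lists of GAS, PIM, ESC-ser and ESC-2i held 36400, 15798, 24436 and 24613 peaks. Their median maxima were 16, 35, 43 and 58. The H3K4me3 lists held 28915, 25448, 11002 and 19362 peaks. Only the difference from PIM was recomputed under other settings. In GAS the genes with both marks were 0.787 times as many as the frequencies of the marks alone would give, and 0.822 times among CpG-high genes. In PIM the ratio over all protein-coding genes was 0.923, and in ESC-ser and ESC-2i it was 0.970 and 1.02. Among CpG-high genes the order was different, with 0.759 in PIM, 0.838 in ESC-ser and 0.959 in ESC-2i, and over all genes of the annotation the GAS ratio was 1.06. In the other direction, 50.5% of the GAS genes with H3K27me3 also carried H3K4me3, against 54.8% in PIM, 47.3% in ESC-ser and 63.0% in ESC-2i. Here GAS lay within the range of the others.

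Genes of the fast muscle fiber lay in wide H3K4me3 peaks. Of 20 fast fiber genes 18 carried it, against 64.2% of all protein-coding genes, and 12 of them had no H3K27me3. All 20 carried H3K27ac, the acetylation of active promoters and enhancers, against 47% of all genes. The H3K4me3 peaks of these 18 genes were 4584 to 13620 bp wide, with a median of 6351.5 bp, where the median of all protein-coding genes with the mark was 2388 bp. Every one of the 18 peaks was wider than the 90th percentile of those genes, 4316 bp. Their height was ordinary, with a median maximum of 147 against 119 for all genes.

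Myl1, the fast myosin light chain (chr1:66924295-66945404), had the widest, 13620 bp with a maximum of 166. Atp2a1 had a peak of 12032 bp and Tnnt3, the fast troponin T, one of 10700 bp. Eno3, the muscle enolase, had 9570 bp, Pygm, the muscle glycogen phosphorylase, 7149 bp, and Actn3, the actinin of fast fibers, 6947 bp. None of these 6 had an H3K27me3 peak at its promoter. Myh4, the myosin heavy chain of the fastest fibers, had a peak of 6690 bp with a maximum of 76, the lowest of the 18. The other fast myosin genes of that cluster, Myh2 and Myh1, were the 2 fast fiber genes without a mark, with the nearest H3K4me3 peak 2262 and 25636 bp from a start site.

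The other 6 of the 20 fast fiber genes carried both marks, against 12.1% of all protein-coding genes. With the H3K27me3 list reduced to the bases of the H3K4me3 list, 2 of the 20 carried H3K27me3. Acta1, the skeletal actin (chr8:123891769-123894751), lay in an H3K4me3 peak of 6400 bp with a maximum of 128 and in an H3K27me3 peak of 6727 bp with a maximum of 21, and the peaks shared 4869 bp. Cacna1s, the voltage sensor of the calcium release channel, had peaks of 4584 and 5763 bp with 2833 shared bases. Where a gene has several peaks, the widths given are those of its widest peaks, and the shared bases are the most in any pair of its peaks. For Ryr1, the release channel itself, the widest peaks of 5362 and 5576 bp did not overlap, and another pair shared 3186 bp. For Mybpc2, the fast myosin-binding protein, the widest H3K27me3 peak of 14843 bp did not overlap the widest H3K4me3 peak of 5160 bp either, and another pair shared 1361 bp. At Pvalb, the calcium buffer of fast fibers, the most in a pair was 1604 bp. At Ckm, the muscle creatine kinase, they shared 0 bp and lay 1204 bp apart. In PIM 5 of these 6 genes, all but Ckm, carried H3K27me3 without H3K4me3, and in myotubes (MT), muscle cells grown in culture, 3 of the 6 carried H3K27me3. Over all protein-coding genes 11.9% were in the H3K27me3-only class in PIM, and 20.1% carried H3K27me3 in MT.

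Slow fiber genes were marked less widely. Of 10, 6 carried H3K4me3, close to the 64.2% of all protein-coding genes, with a median width of 1695 bp. Tpm3, a slow tropomyosin that many tissues share, had a peak of 1798 bp, Tnnc1, the slow troponin C, 3590 bp and Casq2, the slow calsequestrin, 3978 bp. Myl3, a slow light chain, had both marks, 1592 bp of H3K4me3 and 3949 bp of H3K27me3. Myh7, the slow myosin heavy chain (chr14:54970684-54994626), and Myl2, its light chain, carried H3K27me3 only, over 7432 and 1040 bp, and both also carried it in MT. Tnni1 and Tnnt1 carried neither.

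**Figure D1:**
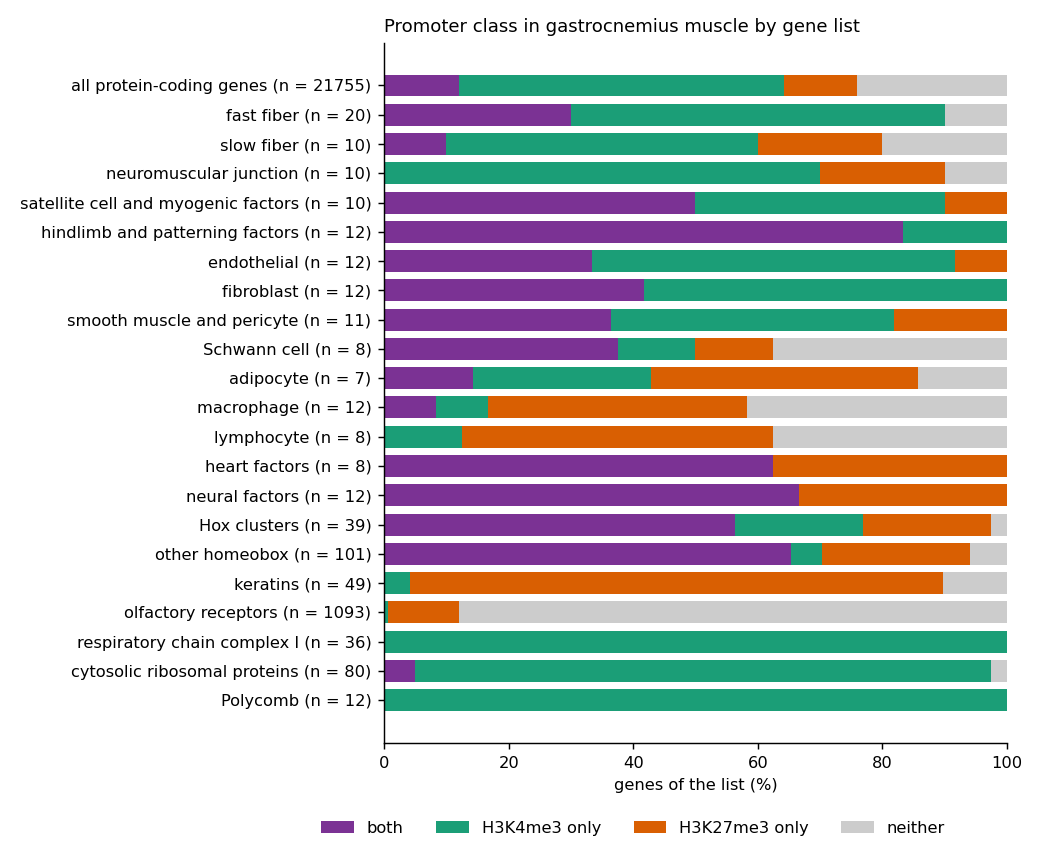
Share of the genes of each list (x axis, percent) in the 4 promoter classes in GAS, with the number of genes in brackets and all protein-coding genes at the top. Complex I and Polycomb genes were in the H3K4me3-only class throughout, keratins in the H3K27me3-only class for 42 of 49, and hindlimb factors in the class with both marks for 10 of 12.

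Genes of the neuromuscular junction were mostly in the H3K4me3-only class. Of 10 receptors and scaffolds, 7 carried H3K4me3 only, against 52.1% of all protein-coding genes, among them Chrne, the adult subunit of the acetylcholine receptor, with 1463 bp and a maximum of 27, Musk, the junction's receptor kinase, with 3209 bp, and Dok7, its adaptor, with 4656 bp. Chrng, the fetal subunit that Chrne replaces, carried H3K27me3 only, over 4667 bp. So did Chrnd, the delta subunit that adult receptors retain, over 9951 bp. Colq had neither mark.

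Of the myogenic regulators 5 of 10 carried both marks, against 12.1% of all protein-coding genes. The list holds genes of satellite cells, the muscle stem cells, and of muscle determination, and 9 carried H3K4me3 and 6 H3K27me3, against 64.2 and 23.9%. Pax7 (chr4:139737062-139833528) had an H3K4me3 peak of 2932 bp with a maximum of 61 beside an H3K27me3 peak of 12406 bp. Its paralog Pax3 lay within an H3K27me3 peak of 27006 bp that held its whole H3K4me3 peak of 3422 bp. Myod1, the determination factor, had a higher H3K4me3 peak, 4428 bp with a maximum of 151, and an H3K27me3 peak of 2389 bp. Myf6, the regulator most active in adult fibers, was alike, with 5307 bp and a maximum of 144 against 1973 bp of H3K27me3. Myog and Myf5 carried H3K4me3 only, over 2027 and 1312 bp, each with a maximum of 45. Calcr, a receptor of quiescent satellite cells, carried H3K27me3 only.

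Factors that pattern the hindlimb and the muscle within it stood out by wide peaks of both marks. All 12 carried H3K4me3 and 10 carried both marks, against 64.2 and 12.1% of all protein-coding genes, and 9 of the H3K4me3 peaks were wider than the 90th percentile of all genes. En1, a limb patterning factor, had 9676 bp of H3K4me3 and 23095 bp of H3K27me3, and Meis1, a partner of Hox proteins, had 8303 and 2704 bp. Pitx1 and Tbx4, the factors that set hindlimb identity, had narrow H3K4me3 peaks, 1104 bp of H3K4me3 in 10915 bp of H3K27me3 and 1229 bp against 10682 bp. Lbx1 and Six4 carried H3K4me3 only. The count with both marks was 4 where a peak had to cover the TSS and 5 with the 10000 peaks of largest signal in each list.

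Markers of the other cells of the tissue were checked to see how far each could be seen. Over all protein-coding genes 64.2% carried H3K4me3 and 23.9% H3K27me3. Of 12 fibroblast genes, 12 carried H3K4me3 and 5 of them also H3K27me3. Pdgfra, the receptor that marks muscle fibroblasts, had 4761 bp of H3K4me3 with a maximum of 76 and 6541 bp of H3K27me3, and Col1a1 and Col1a2, the chains of type I collagen, had both marks. Dcn, a matrix proteoglycan, and Col3a1 had H3K4me3 only, over 5841 and 4106 bp. Of 12 endothelial genes 11 carried H3K4me3 and 5 H3K27me3. Kdr and Flt1, the receptors for vascular growth factor, and Erg and Esam had both, whereas Tek, Cdh5 and Pecam1 had H3K4me3 only and Vwf H3K27me3 only. Of 11 smooth muscle and pericyte genes 9 carried H3K4me3 and 6 H3K27me3. The median maximum of the H3K4me3 peaks was 58 in the endothelial, 59.5 in the fibroblast and 55 in the smooth muscle list, below the 147 of fast fiber genes and the 119 of all genes. At this resolution fewer cells of a type and less of the mark per cell cannot be told apart.

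Blood cell genes were seen mainly by H3K27me3 or not at all. Of 12 macrophage genes 2 carried H3K4me3 in GAS, Spi1 and Cd14, whereas all 12 carried it in PIM, the macrophages sorted from injured muscle. H3K27me3 lay at 6 of the 12 in GAS and at 1 in PIM. Over all protein-coding genes H3K4me3 lay at 64.2% in GAS and 59.4% in PIM, and H3K27me3 at 23.9 and 26.4%. C1qa, a complement component of resident macrophages (chr4:136895917-136898803), lay in an H3K27me3 peak of 18147 bp and carried no H3K4me3. Csf1r, Adgre1, Ptprc, Mrc1 and Cd68 carried neither. Of 8 lymphocyte genes 1 carried H3K4me3 and 4 H3K27me3, among them Cd4 over 9803 bp and Cd3e over 9376 bp. Schwann cell genes gave 4 with H3K4me3 and 4 with H3K27me3 of 8, adipocyte genes 3 and 4 of 7, and tendon genes 2 and 3 of 5, beside the same shares over all genes. Sox10, the Schwann cell factor, carried H3K27me3 only, over 9199 bp.

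Regulators of other organs lay in wide H3K27me3 peaks. All 8 heart factors carried H3K27me3, against 23.9% of all protein-coding genes, over 7071 to 34880 bp with a median of 23801 bp. All 12 neural factors carried it too, over 9216 to 29731 bp with a median of 18483 bp. The median over all genes with H3K27me3 was 4403 bp and the 90th percentile 12296.5 bp. H3K4me3 was at 5 of the heart and 8 of the neural genes, close to the 64.2% of all protein-coding genes. These H3K4me3 peaks were low, with a median maximum of 43 and 54. Gata4, a heart and gut factor (chr14:63198922-63271692), had an H3K4me3 peak of 2726 bp wholly inside an H3K27me3 peak of 34035 bp, and Tbx5 had 2116 bp inside 34880 bp. Nkx2-5 and Hand1 carried H3K27me3 only, over 26455 and 25989 bp. Among the neural factors Pax6 had 4729 bp of H3K4me3 and 29731 bp of H3K27me3, with 3557 bp shared, whereas genes such as Neurod1, Neurog1 and Tlx3 carried H3K27me3 only. All 20 genes of these lists also carried H3K27me3 in PIM, against 26.4% of all protein-coding genes.

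**Figure D2:**
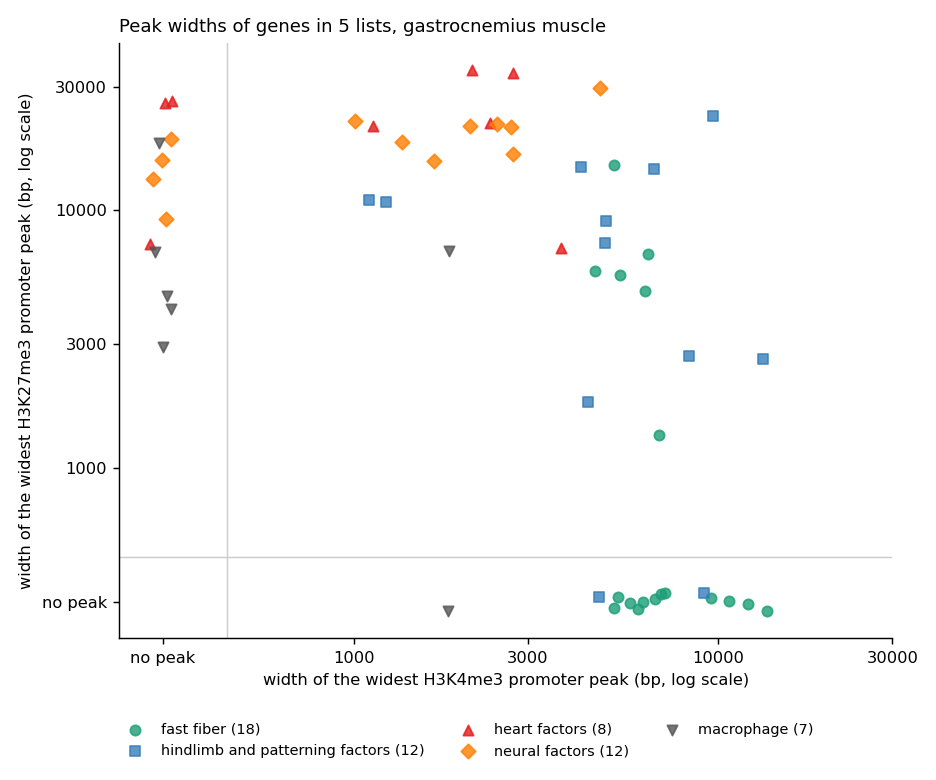
Width of the widest H3K4me3 peak (x axis, bp, log scale) against that of the widest H3K27me3 peak (y axis, bp, log scale) at the promoter of each gene of 5 lists in GAS, where each point is a gene and a gene with a peak of 1 mark alone stands at no peak on the other axis. The 18 fast fiber genes with H3K4me3 lie at H3K4me3 widths of 4584 bp and more, while neural factors lie at H3K27me3 widths of 9216 bp and more.

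Of 8 liver genes 4 carried H3K27me3, with a median width of 2887.5 bp, and of 8 germ line genes 2 did, near the 23.9% of all protein-coding genes. Apoh was the sole gene of these lists with H3K4me3, and its peaks of the 2 marks lay 48264 bp apart, at different start sites.

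Developmental families often held both marks, which 12.1% of all protein-coding genes carried. They lay at 22 of 39 Hox genes, 66 of 101 other genes named after homeobox and paired box families, 37 of 82 Sox, Fox, Tbx and Gata genes, 31 of 52 Wnt, Bmp and Fgf ligands and 19 of 34 voltage-gated potassium channels. Collagens gave 20 of 44 and receptors for glutamate and GABA 13 of 42, with 18 more of the latter in the H3K27me3-only class. In the homeobox group 85 of 90 H3K27me3 peaks were wider than the median of all genes and 59 wider than the 90th percentile. In the Hox clusters the H3K4me3-only class held Hoxa7, Hoxa9, Hoxc5, Hoxc6, Hoxc9, Hoxc10, Hoxd8 and Hoxd9. Hoxa2, Hoxb1, Hoxb2, Hoxb9, Hoxb13, Hoxc13, Hoxd1 and Hoxd12 carried H3K27me3 only, and Hoxc8 carried neither. In these families, too, a count of both marks depended on which peaks were kept, and with the 10000 peaks of largest signal in each list 3 Hox and 19 other homeobox genes had both.

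Housekeeping families lay almost wholly in the H3K4me3-only class, which held 52.1% of all protein-coding genes. All 36 complex I genes and all 12 genes of the Polycomb machinery and its opposing demethylases were there, as were 74 of 80 cytosolic ribosomal, 70 of 75 mitochondrial ribosomal and 33 of 39 proteasome genes. Ezh1, the Polycomb enzyme of resting cells, had an H3K4me3 peak of 2055 bp with a maximum of 230, close to Ezh2 with 2280 bp and 233. Complex I peaks were of ordinary width, with a median of 2582.5 bp, and high, with a median maximum of 199. Of 365 Zfp genes 310 carried H3K4me3 only.

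Keratins were mostly in the H3K27me3-only class. Of 49, 42 were in this class, against 11.9% of all protein-coding genes, and none carried both marks, and their H3K27me3 peaks reached 24964 bp at Krt1. In PIM 11 of the 49 carried H3K27me3, near the 26.4% of all protein-coding genes there, whereas 28 did in MT and 19 in myoblasts (MB), against 20.1 and 12.5%. With the reduced H3K27me3 list 25 of the 49 were in the H3K27me3-only class in GAS. Olfactory receptors were mostly bare, with neither mark at 961 of 1093, and 125 were in the H3K27me3-only class (11.4%, against 11.9% of all genes). Vomeronasal receptors had neither mark at 311 of 327.

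The widest peaks of each class were also read out. Among genes with both marks the most shared bases were at Sfi1, with 28146 bp, and at Sp110, Tal1, Gm10719, Pcdh17 and Prdm1. The Gm10719 peak had a maximum of 131142 in the H3K4me3 and 3665 in the H3K27me3 list, and was among the very high peaks given above. No filter for blacklisted regions was applied here. Whether the peaks at Sfi1, Sp110 or the other genes lie in such regions was not tested. Tal1, a factor of blood and vessel development, had 7291 bp of H3K4me3 within 24396 bp of H3K27me3, and Pcdh17, a protocadherin, had 6564 bp shared. The widest peaks of the H3K4me3-only class were at Hoxa9 (19840 bp), Gm37419 (16654 bp), Hoxc10 (16540 bp), Nfib (16252 bp), Zeb2 (15744 bp) and Asb2 (15150 bp), the last a subunit of a muscle ubiquitin ligase. Hoxa9, Hoxc10 and Asb2 carried both marks in PIM, as did 14.5% of all protein-coding genes. Those of the H3K27me3-only class were at Hoxb13 (73415 bp), 6430628N08Rik (44253 bp), Pax5 (39033 bp), Pdx1 (35829 bp), Cfap65 (32908 bp) and Lhx5 (32144 bp). Hoxb13 is a posterior Hox gene, Pax5 the B cell factor and Pdx1 the pancreas factor, and all 6 carried H3K27me3 without H3K4me3 in PIM, against 11.9% of all protein-coding genes.

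H3K4me3 peaks were narrower and lower where H3K27me3 was also present. Over all genes, the 3907 H3K4me3 peaks at genes with both marks had a median width of 1626 bp (1579 to 1674), against 2082 bp (2061 to 2104) for 14059 peaks at H3K4me3-only genes and 955 bp for 10949 peaks away from promoters. The log2 ratio was -0.36 (-0.41 to -0.30). The median maximum was 52 against 98, a log2 ratio of -0.91 (-1 to -0.86). Within CpG-high promoters the order was the same, with the widest peak of a gene at 2087 bp (2015 to 2140) for both marks and 2542 bp (2516 to 2562) for H3K4me3 only, and a maximum of 66 against 139. The width ratio depended on which peaks of both lists were kept, which also changed the classes. With the 10000 peaks of largest total signal in each list, a measure that grows with width, the log2 ratio was 0.12 (0.04 to 0.18), and with the peaks at or above the median maximum of each list it was -0.06 (-0.12 to 0.01). In PIM the log2 ratio of widths was -0.19 (-0.23 to -0.14), in ESC-ser 0.01 (-0.03 to 0.05) and in ESC-2i 0.12 (0.08 to 0.15). The ratio of maxima was below 0 in all 4 cell types, at -1.07 in PIM, -0.32 in ESC-ser and -0.28 in ESC-2i.

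H3K27me3 peaks hardly differed in width between the classes. The median was 3534 bp (3427 to 3650, n = 4317) at genes with both marks and 3260 bp (3194 to 3342, n = 6195) at H3K27me3-only genes, a log2 ratio of 0.12 (0.04 to 0.19) that was below 0 under 4 of the other settings, with -0.04 the lowest. Peaks away from promoters had a median of 2645 bp. Of the peaks at genes with both marks 11.5% were over 10 kb (10.6 to 12.5%). The share was 7.64% (7.00 to 8.32%) at H3K27me3-only genes and 1.88% away from promoters. A peak that touched any gene with both marks was counted in the first group. A wide peak over several promoters fell there more readily for this reason. By another measure, the widest peak of each protein-coding gene, the medians were 4397 bp for both marks and 4412.5 bp for H3K27me3 only. By that measure they were 4688 bp (4480 to 4931) and 6423 bp (5955 to 6948, n = 559) within CpG-high promoters. The 90th percentiles of the widest peaks were 12661.7 and 11937.9 bp over all these genes. Within CpG-high promoters the order was the other way, with 14093.6 bp for both marks and 16544.8 bp for H3K27me3 only. In PIM, ESC-ser and ESC-2i the log2 ratio of widths was 0.29, 0.63 and 0.35, above the value of GAS.

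**Figure D3:**
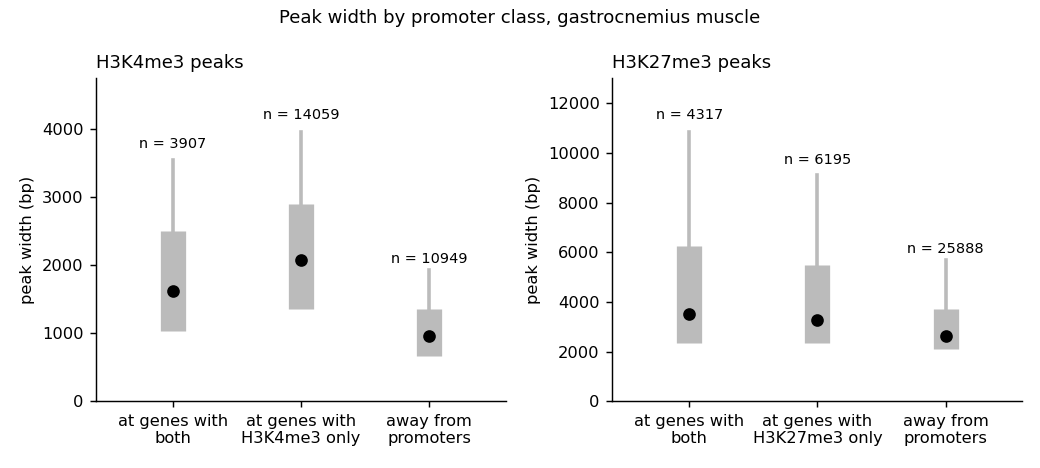
Width of GAS H3K4me3 and H3K27me3 peaks (y axis, bp) at genes with both marks, at genes with that mark only and away from promoters. Points are medians, thick bars the 25th to 75th percentile, thin lines reach the 90th percentile, and n counts peaks; H3K4me3 peaks at genes with both marks had a median of 1626 bp against 2082 bp.

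Peaks of the 2 marks overlapped at most genes that carried both. Of the 2628 protein-coding genes with both marks, 2371 (90.2%) had both within 2000 bp of the same start site, and at 1851 (70.4%, interval 68.7 to 72.1%) their peaks shared bases, with a median of 1210 bp. At the other 777 (29.6%) the peaks shared no base, and the median gap was 1098 bp. The H3K27me3 peak was the wider at 82.8% of genes. The H3K4me3 summit, the stretch of highest signal, lay within 500 bp of a start site at 73.0% of genes with both marks (71.3 to 74.6%) and at 86.4% of H3K4me3-only genes (85.8 to 87.0%). The H3K27me3 summit lay that close at 23.7 and 28.3% of the genes of its classes. Over the genome the marks shared 4662 kb, which is 8.83% of the H3K4me3 bases and 3.38% of the H3K27me3 bases. This was 1.68 times what random placement over the genome would give. Such placement leaves out that 62.1% of the H3K4me3 and 28.9% of the H3K27me3 peaks touched a promoter. Among protein-coding genes the count with both marks was 0.787 times that from the separate frequencies.

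H3K27me3 dipped over the start site of genes with both marks. At the 5′ most TSS 39.8% of these genes lay in an H3K27me3 peak (37.9 to 41.7%), against 58.4% at 2000 bp upstream (56.5 to 60.3%) and 53.8% at 2000 bp downstream (51.9 to 55.7%). The H3K27me3-only genes showed no such dip across these positions, with 48.6% upstream, 58.3% at the TSS and 62.6% downstream. At a finer scale they had a shallow low of 57.8% at 100 bp downstream. It lay between 59.5% at 200 bp upstream and 64.1% at 1500 bp downstream. H3K4me3 covered the TSS of 66.9% of genes with both marks and of 89.2% of H3K4me3-only genes. In the other cell types H3K27me3 covered the TSS of genes with both marks more often than in GAS, at 68.0% in PIM (66.4 to 69.6%), 75.5% in ESC-ser (73.9 to 77.1%) and 71.3% in ESC-2i (69.7 to 72.9%). There the values 2000 bp upstream were 70.1, 52.2 and 46.6%. All 3 cell types thus lay above GAS at the TSS, and in both stem cell types the TSS value was the highest of the 3 positions.

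**Figure D4:**
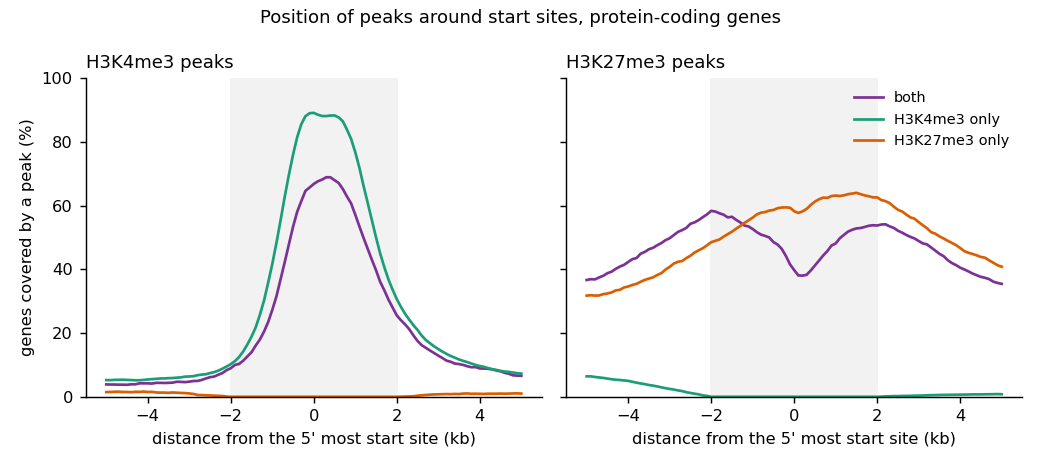
Share of protein-coding genes of each class covered by a GAS H3K4me3 peak (left) or H3K27me3 peak (right) at each distance from the 5′ most start site (x axis, kb, downstream to the right; y axis, percent). Grey marks the 2 kb windows, and the H3K27me3 line of genes with both marks falls to 39.8% at the start site from 58.4% at 2000 bp upstream.

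Genes with both marks fell between the H3K4me3-only and the H3K27me3-only genes in H3K27ac and H3K18la. H3K27ac lay at 31.2% of them (29.4 to 33.0%), against 77.6% of H3K4me3-only and 6.59% of H3K27me3-only genes. H3K18la, the lactate-derived mark that the series was made to profile, lay at 33.3, 57.7 and 4.57%. Genes with neither mark had H3K27ac at 8.47% and H3K18la at 6.25%. Over all protein-coding genes the shares were 47 and 36.1%. The H3K18la share of genes with both marks was thus close to that of all genes. The 819 genes with both marks and H3K27ac differed from the 1809 without it. Their H3K4me3 peaks were wider, 2468 bp (2348 to 2548) against 1767 bp (1712 to 1818), and higher, with a median maximum of 101 against 52. Their H3K27me3 peaks were narrower, 3603 bp (3274 to 3821) against 4925 bp (4654 to 5122), and the peaks of the 2 marks shared bases at 55.8% (52.4 to 59.2%) against 77.1% (75.1 to 78.9%). Acta1 and Myod1 belonged to the former group and Gata4 and Pax7 to the latter.

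The classes in GAS were set beside those in sorted macrophages. Of the 2628 genes with both marks in GAS, 1292 (49.2%) also had both in PIM, 448 (17.0%) had H3K4me3 only, 768 (29.2%) H3K27me3 only and 120 (4.57%) neither. Over all protein-coding genes these classes held 14.5, 44.9, 11.9 and 28.7% in PIM. At the 448 genes that macrophages mark with H3K4me3 only, the GAS peaks shared bases at 41.5% (37.0 to 46.1%) and the H3K27me3 peaks were 3100 bp wide. At the 768 genes that they mark with H3K27me3 only, the peaks shared bases at 84.2% (81.5 to 86.7%), the H3K27me3 peaks were 4646 bp wide and the H3K4me3 peaks 1580 bp. Macrophage H3K27me3 was present at 78.4% of the genes with both marks, against 18.5% of H3K4me3-only genes. The PIM came from injured muscle, and whether such cells contribute to the GAS lists was not tested. The macrophage list itself carried H3K4me3 at 2 of 12 genes in GAS.

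Muscle cells in culture carried H3K27me3 at many of these genes. It was present at 56.5% of the genes with both marks in MT (54.6 to 58.4%), against 20.1% of all protein-coding genes, and at 43.3% in MB, which were primary cells with a single library, against 12.5%. In the H3K4me3-only class the shares were 6.82 and 3.18%, and in the H3K27me3-only class 1558 and 1058 of the 2580 genes had it. At the 1486 genes with H3K27me3 in MT the GAS H3K27me3 peaks were 5619.5 bp wide (5360 to 5886), against 3321.5 bp (3195 to 3478) at the 1142 without. H3K27me3 in at least 1 of the 5 sets MT, MB, PIM, ESC-ser and ESC-2i was found at 93.2% of the genes with both marks (92.2 to 94.1%). It was found at 86.6% of H3K27me3-only genes, 30.8% of H3K4me3-only genes and 24.6% of genes with neither mark. Pooling 5 sets raises all of these shares. The highest share of a single set over all protein-coding genes was 27%, in ESC-ser, and that of the pooled sets was not computed. Stem cells held both marks at 44.3% of the genes with both marks in GAS when grown in serum and at 52.6% in 2i, against 12.8 and 14.2% of all protein-coding genes. H3K4me3 alone lay at 32.4% of them in ESC-2i, against 47.6% of all, and neither mark at 6.35%, against 29.9%. In ESC-ser 29.4% had H3K27me3 only, against 14.2% of all.

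**Figure D5:**
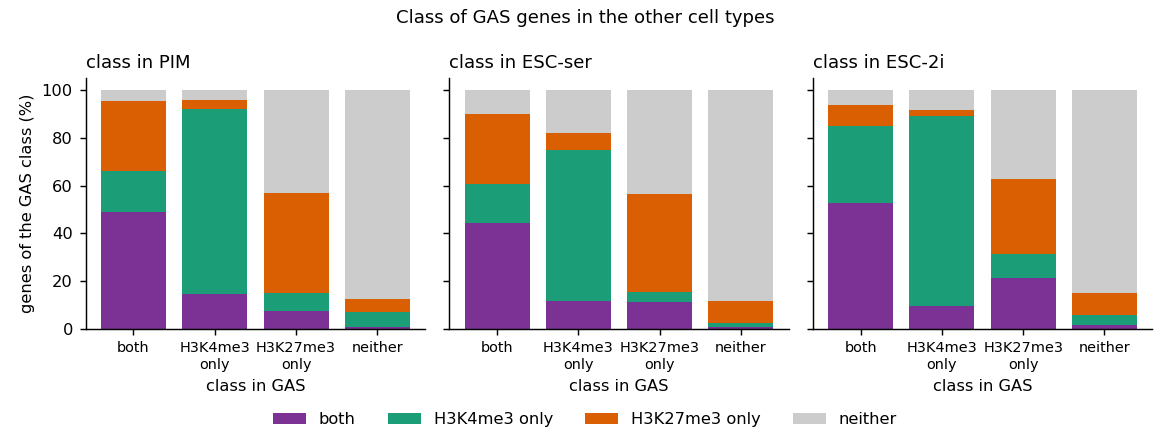
Class in PIM, ESC-ser and ESC-2i (colors, percent of genes, y axis) of the protein-coding genes of each GAS class (x axis). Of the genes with both marks in GAS 49.2% had both in PIM and 29.2% H3K27me3 only, while 77.6% of the H3K4me3-only genes of GAS were in that class in PIM too.

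Other kinds of genes were counted in the same way. Over all 53843 genes of the annotation 3553 carried both marks, 15416 H3K4me3 only, 5976 H3K27me3 only and 28898 neither. Of 9603 long non-coding RNA genes 5.61% carried both, 22.9% H3K4me3 only and 13.8% H3K27me3 only. Of 2196 miRNA genes 3.32% carried both and 15.7% H3K4me3 only. Genes with both marks were long, with a median span of 34.5 kb (31.9 to 37.5), against 23.2 kb for H3K4me3-only and 13.2 kb for H3K27me3-only genes, and had a median of 4 start sites against 5 and 2. More start sites give a gene more windows. With the 5′ most TSS alone 2079 protein-coding genes had both marks.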

How the data were processed

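CUT&Tag libraries of H3K4me3 and H3K27me3 from 4 GAS samples were used, with other lists for comparison. The authors trimmed reads with Trim Galore 0.6.6, aligned them to mm10 with Bowtie2 2.4.4, merged replicate coverage with bedtools 2.30 and called peaks with SEACR 1.3 in stringent mode, keeping the top 1%. The deposited lists give each peak's total and maximum signal, the coverage by fragments without depth scaling. The authors also filtered peaks in blacklisted regions, and no such filter was applied here.

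Peaks on chromosomes 1 to 19 and X were intersected with windows of 2000 bp around 139486 GENCODE vM21 transcript starts by own code in Python 3.11.15, checked against bedtools 2.31.1 and tested on simulated intervals. Genes were named from fixed lists and symbol patterns, and by a rule that took 6 genes of each class with a mark. These were the genes with the widest peaks or, for both marks, with the most bases shared by their peaks. One pattern, other homeobox, also took the coactivator gene Pou2af1. Members and lists were chosen with earlier results of these data known. No test was run, because the list used for each mark pools its replicates. The values that changed most under 11 alternatives are given in the closing section or beside the result. Values of some list members are not reported here.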

Additional observations from a re-analysis of the deposited data

Results flagged for a closer look

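Peaks on the Y chromosome were found in the lists of female mice and were used in no comparison. The GAS H3K4me3 list held 22 and the GAS H3K27me3 list 8. The other lists of the same cell type held 3 (H3K27ac) and 9 (H3K18la). The PIM lists used, also from female mice, held 46 (H3K4me3) and 1 (H3K27me3). The source of these peaks was not tested.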

How the results depend on the processing

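The GAS lists pool their replicates, so none could be left out, read depth is unknown and counting intervals understate the error. No paired analysis was possible because each mark has a single list that pools its replicates. The 3553 genes with both marks became 1650 where a peak had to cover the TSS, 768 with the 10000 peaks of largest signal, 1595 with peaks at or above the median maximum and 1614 with the larger list reduced to the bases of the smaller. H3K27me3-only genes numbered 5976, but 2531 with protein-coding genes and their protein-coding transcripts only and 2085 with the reduced list, and genes with neither mark 28898, but 5370 with that restriction. H3K4me3-only genes stayed within 1.5 times of 15416 under all of these. The log2 width ratio of H3K27me3 peaks, 0.12, turned to -0.000582 with it, -0.039 with the 10000 peaks, -0.0027 above the median maximum and -0.00507 with the reduced list. That of H3K4me3 peaks, -0.36, turned to 0.12 with the 10000 peaks and was -0.30 where a peak covered the TSS, -0.058 above the median maximum and -0.42 with the reduced list. H3K27me3 was at 5.44 to 18.8% of protein-coding genes with H3K4me3, and the share was lower in GAS than in PIM under each of the 10 settings. Leaving out peaks above 1000 was chosen after seeing the data and gave 3540 genes. The cause of these shifts was not tested.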
